A study of Homo sapiens with 10 samples.

Results

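The genes described here are 38 components and targets of the NF-kB pathway, grouped by role into 5 subunits, 10 inhibitors and feedback genes, 13 upstream genes and 10 targets. They were read in 2 mantle cell lymphoma lines, HBL2 and JEKO, each as bortezomib-resistant (BR) cells and as the matched PT cells. A gene counted as measured when the array had a probe set annotated to it and to no other gene, and its brightest probe set, by the mean over the 10 arrays, stood for it. By that rule 34 of the 38 were measured, on 84 probe sets among 41091, and all 34 were among the 14529 genes (of 19775) that passed a filter on low values. BCL3, CCL3, BIRC3 and TRAF2 were not analysed here.

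Mantle cell lymphoma arises from mature B cells and is treated with bortezomib, an inhibitor of the proteasome. There were 3 arrays each of HBL2 PT and HBL2 BR and 2 each of JEKO PT and JEKO BR, all from cells harvested in logarithmic growth. The labels describe the BR cultures as made resistant with bortezomib and give PT as letters only, read here as parental, an assumption that no label spells out. The labels do not say whether a BR culture is a clone, whether the drug was present at harvest, or whether replicates were separate cultures, so the p-values reflect the spread among these arrays alone, and that spread may be technical. The mantle cell and B cell markers CCND1, MS4A1, CD79A, CD79B and PAX5 lay at or above the 95.7th percentile of the array in every group. SOX11 lay at the 82.6th to 94.0th, CD22 at the 71.5th to 83.2nd and CD5 at the 31.6th to 64.3rd. All 6 T and NK cell markers were below the array median in JEKO and 5 of 6 in HBL2.

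NF-kB transcription factors are dimers of the subunits encoded by NFKB1, NFKB2, RELA, RELB and REL. In resting cells they are held in the cytoplasm by IkB proteins, which the proteasome destroys once the IkB kinases have marked them, and the proteasome also trims the NFKB1 and NFKB2 precursors to their active forms. Active NF-kB switches on genes for survival proteins, chemokines and surface receptors, and also its own inhibitors, so that the signal limits itself. B cells use the pathway downstream of the B cell receptor, CD40 and Toll-like receptors.

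The values are deposited scores between 0 and 4.99 on a log-like scale whose base is not stated, so differences are given in score units and never as fold changes, and the score of a gene is not set against that of another. Sums of scores over marker genes, given below, compare groups for the same genes and are not amounts of RNA. Values after ± are standard errors. A gene is called changed when its adjusted p in limma was under 0.05 (Benjamini-Hochberg, over 14529 genes). The beta-actin 5' minus 3' control, a sign of RNA quality, had its 3 lowest values on JEKO BR replicate 2, HBL2 BR replicate 3 and HBL2 PT replicate 1, called the low-actin arrays below. JEKO has 2 arrays a group, and several of its calls were lost when any 1 JEKO array was left out, which leaves 1 array in a group.

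Because many NF-kB targets carry the factor's binding motif near their start, the 250 bases upstream of each start site in RefSeq (GRCh38.p14) were searched on both strands for the 10-base kappaB consensus, with overlapping matches counted at each position. Of 31 members with a promoter in the table, 17 (54.8%) held at least 1 match, against 3221 of 27305 genes (11.8%). The members were listed as NF-kB components and targets, so a higher share was likely beforehand and is given as a description. The 27305 are all genes with a promoter in the table, not the 14529 tested. A gene counted if any of its start sites had a match, and the members had more start sites per gene. By window, 21 of 54 (38.9%) held a match, against 3498 of 35116 (9.96%). By role, 3 of 4 subunits, 6 of 8 inhibitors and feedback genes, 5 of 8 targets and 3 of 11 upstream genes held one. RELB, NFKBIE, MIR146A, IKBKB, CD40, CCL4 and IER3 had no entry. The windows below were picked among called members whose window holds a match, so they do not show how often such members carry one. NFKBIA, NFKBIZ, TNFAIP3 and PTGER4 rose in BR cells of both lines. REL was called higher in HBL2 BR alone, and CD83 and CCL22 were lower in HBL2 BR. TNFAIP2 rose in HBL2 and had 0 matches, while TRAF3, TNIP1 and CFLAR held 1 each, in TNIP1 and CFLAR before 1 of their starts, and are not shown. The windows are printed 5' to 3' with the matches in capitals. NFKBIZ has 2 start sites with 1 match each, of which the downstream one is shown, and CD83 has 2, of which the one with matches is shown.
NFKBIA, chr14:35404750-35404999, minus strand: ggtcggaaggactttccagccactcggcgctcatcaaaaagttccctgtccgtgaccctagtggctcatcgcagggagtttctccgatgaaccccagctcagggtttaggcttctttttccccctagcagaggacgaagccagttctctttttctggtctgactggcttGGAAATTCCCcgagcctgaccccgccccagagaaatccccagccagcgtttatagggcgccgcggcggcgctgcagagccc
NFKBIZ, chr3:101849264-101849513, plus strand: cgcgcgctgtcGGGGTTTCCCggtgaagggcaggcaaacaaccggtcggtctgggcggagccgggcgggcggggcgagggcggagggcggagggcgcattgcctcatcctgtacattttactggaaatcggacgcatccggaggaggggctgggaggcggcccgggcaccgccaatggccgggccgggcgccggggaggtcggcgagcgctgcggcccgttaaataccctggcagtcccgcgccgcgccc
TNFAIP3, chr6:137867009-137867258, plus strand: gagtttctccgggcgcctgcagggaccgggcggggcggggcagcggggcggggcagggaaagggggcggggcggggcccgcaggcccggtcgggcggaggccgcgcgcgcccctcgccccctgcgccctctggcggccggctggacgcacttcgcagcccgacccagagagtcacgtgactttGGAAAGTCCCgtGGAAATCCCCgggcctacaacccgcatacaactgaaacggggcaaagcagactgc
PTGER4, chr5:40679665-40679914, plus strand: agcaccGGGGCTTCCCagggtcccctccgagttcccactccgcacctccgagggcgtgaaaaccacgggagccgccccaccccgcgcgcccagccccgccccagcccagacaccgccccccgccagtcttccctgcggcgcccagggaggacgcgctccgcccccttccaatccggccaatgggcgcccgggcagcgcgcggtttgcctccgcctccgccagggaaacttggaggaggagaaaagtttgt
REL, chr2:60881324-60881573, plus strand: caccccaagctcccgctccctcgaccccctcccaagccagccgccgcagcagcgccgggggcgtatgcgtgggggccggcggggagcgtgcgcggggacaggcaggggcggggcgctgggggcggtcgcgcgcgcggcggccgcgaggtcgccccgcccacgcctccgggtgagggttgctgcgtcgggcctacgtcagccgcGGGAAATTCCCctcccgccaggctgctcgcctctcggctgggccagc
CD83, chr6:14117522-14117771, plus strand: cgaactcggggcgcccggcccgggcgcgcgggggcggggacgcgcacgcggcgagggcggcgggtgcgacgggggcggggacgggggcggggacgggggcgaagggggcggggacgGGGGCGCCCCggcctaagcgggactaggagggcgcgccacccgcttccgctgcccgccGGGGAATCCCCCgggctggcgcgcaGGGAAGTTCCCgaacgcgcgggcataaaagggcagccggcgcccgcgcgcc
CCL22, chr16:57358533-57358782, plus strand: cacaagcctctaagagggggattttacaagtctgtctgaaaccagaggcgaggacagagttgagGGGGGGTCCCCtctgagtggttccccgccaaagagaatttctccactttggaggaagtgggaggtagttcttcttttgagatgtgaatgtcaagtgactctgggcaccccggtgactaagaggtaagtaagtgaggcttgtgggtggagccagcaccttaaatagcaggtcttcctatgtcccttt
The nearest match ended 71 bases before the start of NFKBIA, 45 before that of TNFAIP3 and 36 before that of REL. It ended 229 bases before the NFKBIZ start shown and 234 before that of PTGER4. The CD83 window held 6 matches, several of them overlapping or on both strands at 1 place, and that of CCL22 held 2. A match is a stretch of letters and does not show binding in these cells.

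Across all roles, 14 of the 34 measured members changed in HBL2 BR, 10 higher and 4 lower (41.2%, against 11.8% of all genes tested; 4.91% higher and 6.86% lower). In JEKO BR 7 members changed, all higher (20.6%, against 4.28% of all genes, 2.56% higher), and none was lower at the adjusted threshold. At an unadjusted p under 0.05 in limma, 3 of the 34 were lower, beside 1082 of all 14529 genes. The median change over the members was 0.054 in HBL2 and 0.028 in JEKO, beside -0.00099 and 0.012 over all genes, and 20 of the 34 were not called in HBL2 and 27 in JEKO. The 4 lower in HBL2 include CCL22, which passed the filter on low values only through the HBL2 PT arrays. Calls gathered in the inhibitors and feedback genes, with 5 of 9 higher in each line, and in the targets, with 7 of 9 called in HBL2. Of the 5 subunits 1 was called in HBL2 and of the 11 upstream genes 1, and 0 of either in JEKO, where 1 subunit and 1 upstream gene had an unadjusted p under 0.05, both lower. In both lines NFKBIA, NFKBIZ, TNFAIP3, MIR146A and PTGER4 rose (5 of 34, against 0.626% of all genes called in the same direction in both). CCL4 changed in opposite directions (1 of 34, against 0.599%). The change differed between the lines in 7 members, 4 with a positive and 3 with a negative difference of HBL2 minus JEKO (20.6%, against 8.71% of all genes, 2.95% positive and 5.76% negative). Without JEKO BR replicate 2 the JEKO count was 1 member, and likewise 1 without the 3 low-actin arrays, MIR146A in each case; over all genes the calls fell from 622 to 120 and 140. Leaving out JEKO PT replicate 1, JEKO PT replicate 2 or JEKO BR replicate 1 also leaves 1 array in a JEKO group. Again fewer members and fewer of all genes were called in JEKO. The HBL2 count stayed between 13 and 14 without any 1 HBL2 array (38.2% to 41.2%, against 7.69% to 11.3% of all genes). On percentile ranks the JEKO rises of NFKBIE (adjusted p = 0.11), NFKBIZ (0.155), CCL4 (0.32) and PTGER4 (0.42) were not called.

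**Figure D1:**
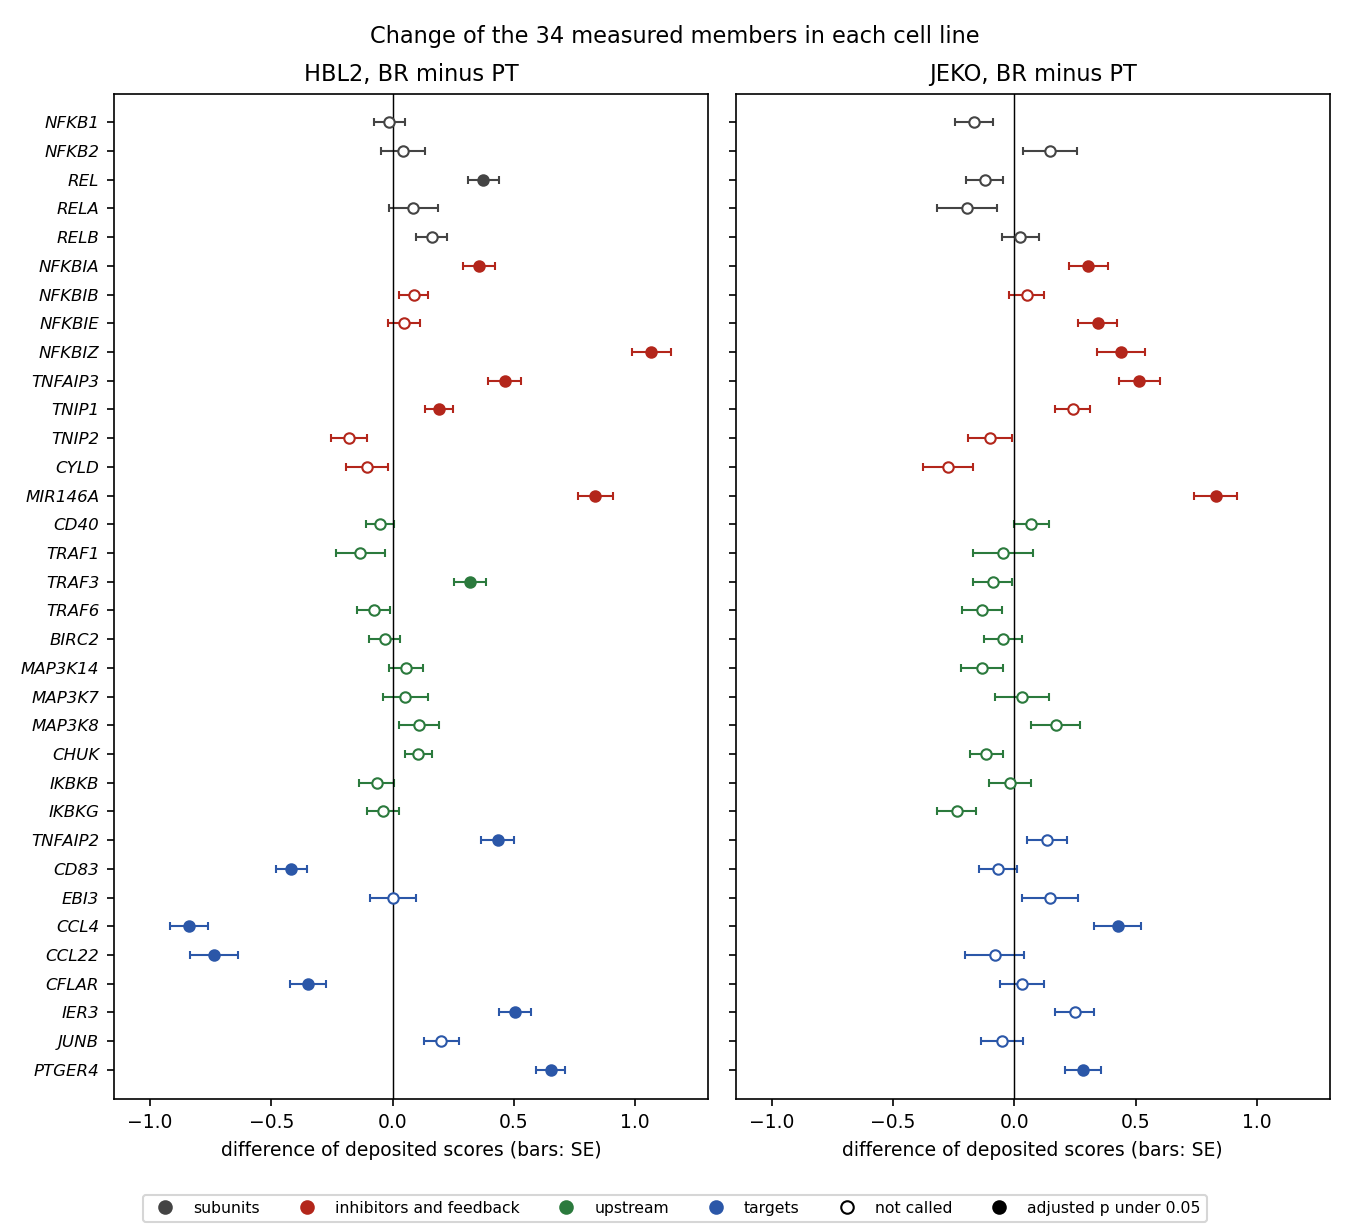
Difference of deposited scores, BR minus PT, for the 34 measured members in HBL2 (left) and JEKO (right); points are limma estimates, bars are standard errors, filled points have an adjusted p under 0.05 and colours give the role. The inhibitors and feedback genes NFKBIZ, MIR146A, TNFAIP3 and NFKBIA lie to the right of 0 in both lines, and CCL4 lies left in HBL2 (-0.84) and right in JEKO (0.43).

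Among the 5 subunits REL was the member called, with a rise in HBL2. REL encodes c-Rel, the subunit that B cells rely on for proliferation. For REL, on the HBL2 PT arrays it was 1.81, 1.83 and 1.74, and on the HBL2 BR arrays 2.08, 2.16 and 2.26, so all BR arrays lay above all PT arrays. The change was 0.37 ± 0.062 (adjusted p = 0.00065), and the other 4 REL probe sets also moved up, by 0.076 to 0.33. JEKO cells gave 1.91 and 1.98 on the JEKO PT arrays and 1.87 and 1.77 on the JEKO BR arrays, a change of -0.12 ± 0.076 (adjusted p = 0.45), and all 5 probe sets were lower. The REL change differed between the lines by 0.50 ± 0.098 (adjusted p = 0.0046). That call was kept without any 1 array and was lost without the 3 low-actin arrays (0.41, adjusted p = 0.054).

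The canonical subunits NFKB1, the precursor of p50, and RELA, or p65, were not called in either line. NFKB1 read 1.67, 1.71 and 1.72 on the HBL2 PT arrays and 1.69, 1.68 and 1.69 on the HBL2 BR arrays, and 1.65 and 1.66 on the JEKO PT arrays and 1.61 and 1.36 on the JEKO BR arrays. Its JEKO difference of -0.17 ± 0.079 (adjusted p = 0.28) came mainly from JEKO BR replicate 2, and was -0.045 without that array. RELA read 1.76, 1.61 and 1.21 on the HBL2 PT arrays and 1.59, 1.62 and 1.63 on the HBL2 BR arrays, a spread among PT arrays wider than the group difference. It read 1.76 and 1.87 on the JEKO PT arrays and 1.69 and 1.55 on the JEKO BR arrays, with a difference of -0.20 ± 0.12 (adjusted p = 0.46). Its other probe set moved by -0.070 in HBL2 and -0.049 in JEKO.

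NFKB2 and RELB encode the precursor of p52 and its usual partner in the alternative pathway. NFKB2 read 1.13, 0.96 and 1.20 on the HBL2 PT arrays and 1.14, 1.28 and 0.997 on the HBL2 BR arrays, and 1.14 and 1.45 on the JEKO PT arrays and 1.49 and 1.39 on the JEKO BR arrays, with BR and PT overlapping in both lines. RELB read 1.23, 1.26 and 1.08 on the HBL2 PT arrays and 1.31, 1.34 and 1.4001 on the HBL2 BR arrays, a difference of 0.16 ± 0.063 (adjusted p = 0.12) with no overlap. In JEKO RELB read 1.56 and 1.60 on the JEKO PT arrays and 1.63 and 1.57 on the JEKO BR arrays, overlapping. RELB stood higher in JEKO than in HBL2 in both states, by 0.39 between the PT cells, written HBL2 minus JEKO -0.39 ± 0.071 (adjusted p = 0.00085), and -0.25 ± 0.071 between the BR cells (adjusted p = 0.014). Between BR cells RELB was not called when HBL2 BR replicate 1 was left out (-0.23, adjusted p = 0.054), when JEKO BR replicate 1 was (-0.22, adjusted p = 0.12) and on percentile ranks (adjusted p = 0.052). For scale, BR and PT arrays did not overlap for 27.3% of all genes in HBL2 (12.8% with BR above, 14.5% below) and 50.8% in JEKO (28.3% above, 22.5% below).

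**Figure D2:**
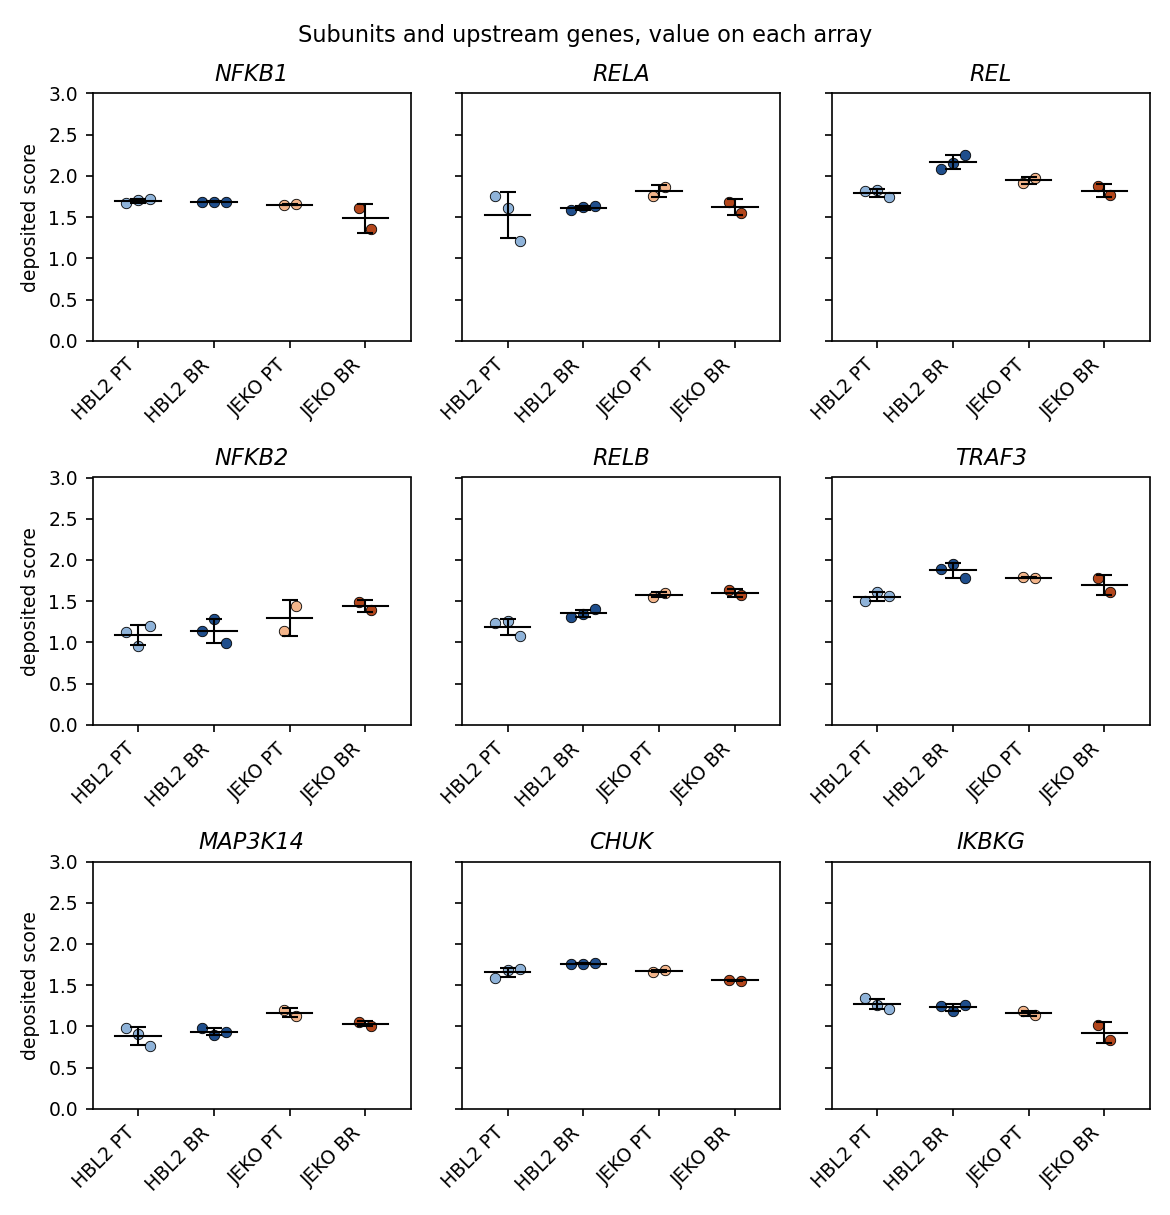
Deposited score on each array for 5 subunits and 4 upstream genes by line and state; horizontal lines are group means and bars are standard deviations (n = 3 in HBL2 and 2 in JEKO). REL and TRAF3 lie higher on all HBL2 BR arrays than on all HBL2 PT arrays, as did 12.8% of all genes tested, and RELB is higher in JEKO than in HBL2.

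Among the inhibitors and feedback genes, NFKBIA, NFKBIZ, TNFAIP3 and the probe set of MIR146A rose in both lines. The median change of the 9 measured genes was 0.19 in HBL2 and 0.304 in JEKO. NFKBIA encodes IkB-alpha, the main cytoplasmic inhibitor and a rapid NF-kB target. For NFKBIA, on the HBL2 PT arrays it was 1.97, 1.91 and 1.96, and on the HBL2 BR arrays 2.22, 2.29 and 2.41. On JEKO arrays it was 1.84 and 1.97 in PT and 2.28 and 2.14 in BR cells, so neither line showed overlap. It rose by 0.36 ± 0.066 in HBL2 (adjusted p = 0.0016) and by 0.30 ± 0.081 in JEKO (adjusted p = 0.0435). The HBL2 call was kept in all 22 alternative analyses. The JEKO call was lost in 11 of 22 alternatives. Among these were omission of any 1 JEKO array (0.23 to 0.37) and of the 3 low-actin arrays (0.37). Each such omission leaves 1 array in a JEKO group. The call was also lost without replicate 2 of HBL2 PT or replicate 1 or 2 of HBL2 BR (adjusted p = 0.0525 to 0.067). So it was with a replicate block (adjusted p = 0.061), without the filter on low values (0.053) and without an intensity trend (0.092).

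NFKBIZ rose in both lines. It encodes IkB-zeta, a nuclear IkB protein that works as a cofactor of NF-kB at a subset of its targets. For NFKBIZ, on the HBL2 PT arrays it was 1.54, 1.49 and 1.83, and on the HBL2 BR arrays 2.77, 2.64 and 2.64. The rise in HBL2 was 1.07 ± 0.081 (adjusted p = 2.23e-07), and its other probe set rose by 1.06. The JEKO values were 1.74 and 1.75 on the JEKO PT arrays and 2.27 and 2.09 on the JEKO BR arrays, a rise of 0.44 ± 0.1 (adjusted p = 0.02), with 0.46 on the other probe set. The JEKO call was lost without any 1 JEKO array or the 3 low-actin arrays (0.35 to 0.53). It was also lost without an intensity trend (adjusted p = 0.063) and on percentile ranks (0.155). The rise was greater in HBL2 by 0.63 ± 0.13 (adjusted p = 0.0056), a call lost without JEKO BR replicate 2 (0.54, adjusted p = 0.051), without the 3 low-actin arrays (0.52, adjusted p = 0.086) and on percentile ranks (adjusted p = 0.24).

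TNFAIP3 and TNIP1 encode A20, a ubiquitin-editing enzyme that shuts off signalling to the IkB kinases, and its binding partner ABIN-1. For TNFAIP3, on the HBL2 PT arrays it was 1.13, 1.05 and 1.16, and on the HBL2 BR arrays 1.49, 1.58 and 1.64, a rise of 0.46 ± 0.068 (adjusted p = 0.00023). For JEKO, on the JEKO PT arrays it was 1.31 and 1.52, and on the JEKO BR arrays 1.89 and 1.97, a rise of 0.52 ± 0.084 (adjusted p = 0.0024). The other TNFAIP3 probe set rose by 0.45 and 0.42, and the changes of the lines differed by -0.05 ± 0.11 (adjusted p = 0.84). Its JEKO call was lost only without JEKO BR replicate 2 (0.47, adjusted p = 0.054) and without the 3 low-actin arrays (0.47, adjusted p = 0.060). TNIP1 read 1.86, 1.79 and 1.88 on the HBL2 PT arrays and 1.99, 2.001 and 2.11 on the HBL2 BR arrays, with no overlap. In JEKO TNIP1 read 1.77 and 1.82 on the JEKO PT arrays and 2.03 and 2.04 on the JEKO BR arrays, with no overlap either. The TNIP1 rise in HBL2, 0.19 ± 0.058, lay close to the limit for a call (adjusted p = 0.04). It was not called in 13 of 23 alternatives, among them without HBL2 PT replicate 2, any 1 HBL2 BR array or any 1 JEKO array (adjusted p = 0.056 to 0.14). In JEKO the difference was 0.24 ± 0.07 (adjusted p = 0.069), and the weaker TNIP1 probe set moved by 0.081 and 0.044.

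MIR146A is a microRNA gene that NF-kB induces and whose product represses IRAK1 and TRAF6, adaptors upstream of the IkB kinases. The mature sequences from RefSeq are shown with bases 2 to 8, the seed that pairs with target messages, in capitals.
hsa-miR-146a-5p: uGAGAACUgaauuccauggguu
hsa-miR-146a-3p: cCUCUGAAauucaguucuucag
The array read a longer transcript that the platform annotation assigns to MIR146A, not these mature forms. For MIR146A, on the HBL2 PT arrays it was 0.84, 0.96 and 1.13, and on the HBL2 BR arrays 1.83, 1.82 and 1.78. JEKO cells gave 1.17 and 1.12 on the JEKO PT arrays and 2.04 and 1.91 on the JEKO BR arrays. The rise was 0.83 ± 0.072 in HBL2 (adjusted p = 8.27e-07) and 0.83 ± 0.088 in JEKO (adjusted p = 8.25e-05), and the difference of these changes was 0.01 ± 0.11 (adjusted p = 0.98). MIR146A was called in both lines in all 23 alternatives, and in JEKO it was the member still called without JEKO BR replicate 2. Its other probe set was below the filter on low values and moved by -0.16 and -0.13. Of the 2 named adaptors, IRAK1 fell by 0.21 in HBL2 (adjusted p = 0.031) and differed by 0.034 in JEKO (adjusted p = 0.87). TRAF6 differed by -0.08 (adjusted p = 0.54) and -0.13 (adjusted p = 0.45).

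The other inhibitors moved less alike. NFKBIE encodes IkB-epsilon, and it read 1.47, 1.46 and 1.57 on the HBL2 PT arrays and 1.57, 1.44 and 1.62 on the HBL2 BR arrays, overlapping, for a difference of 0.05 ± 0.065 (adjusted p = 0.74). The JEKO values were 1.58 and 1.70 on the JEKO PT arrays and 1.95 and 2.01 on the JEKO BR arrays, a rise of 0.34 ± 0.08 (adjusted p = 0.024). That call was lost without any 1 JEKO array or the 3 low-actin arrays (0.28 to 0.41). It was also lost without an intensity trend (adjusted p = 0.057) and on percentile ranks (0.11). The NFKBIE changes of the lines differed by -0.30 ± 0.1 (adjusted p = 0.091), so a difference between them was not called. NFKBIB encodes IkB-beta; it read 1.12, 1.08 and 1.12 on the HBL2 PT arrays and 1.15, 1.21 and 1.21 on the HBL2 BR arrays and 1.04 and 1.09 on the JEKO PT arrays and 1.08 and 1.15 on the JEKO BR arrays, with differences of 0.09 and 0.05 (adjusted p = 0.43 and 0.80). CYLD, a deubiquitinase that dampens the pathway, read 1.18, 1.04 and 0.84 on the HBL2 PT arrays and 0.90, 0.90 and 0.95 on the HBL2 BR arrays and 1.04 and 1.2002 on the JEKO PT arrays and 0.79 and 0.90 on the JEKO BR arrays. The CYLD differences were -0.11 ± 0.085 (adjusted p = 0.51) and -0.27 ± 0.1 (adjusted p = 0.17). Of the 4 other tested CYLD probe sets 3 were lower in BR cells of each line. In HBL2, 1 of these differed by -0.26 (adjusted p = 0.036 over all probe sets tested). TNIP2, which encodes ABIN-2, differed by -0.18 (adjusted p = 0.15) and -0.10 (adjusted p = 0.64), with overlapping arrays in both lines. TNIP2 ranged from 1.41 to 1.61 in HBL2 PT, 1.27 to 1.48 in HBL2 BR, 1.40 to 1.54 in JEKO PT and 1.32 to 1.41 in JEKO BR. Another TNIP2 probe set differed by -0.28 in HBL2 (adjusted p = 0.014 over all probe sets tested).

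**Figure D3:**
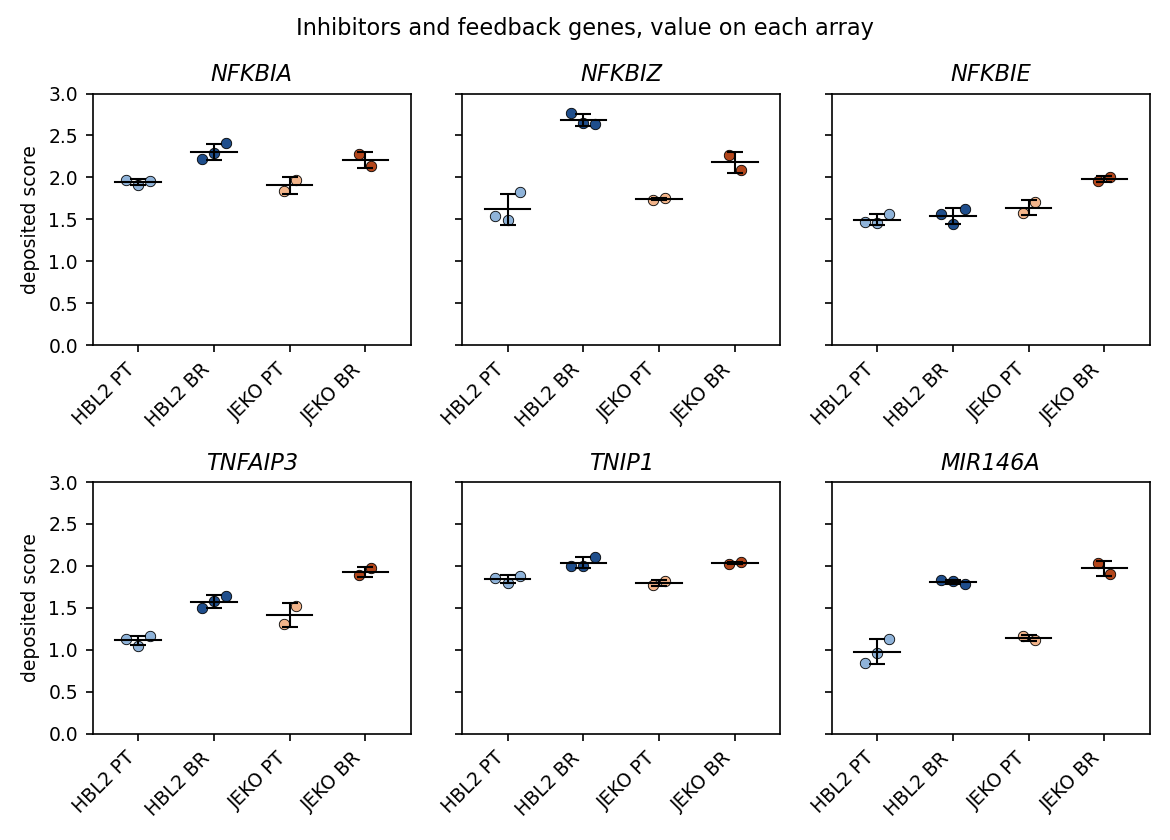
Deposited score on each array for 6 inhibitors and feedback genes by group; horizontal lines are group means and bars are standard deviations (n = 3 in HBL2 and 2 in JEKO). For NFKBIA, NFKBIZ, TNFAIP3, TNIP1 and MIR146A every BR array lies above every PT array of its line, while NFKBIE overlaps in HBL2. Of all genes tested, 12.8% in HBL2 and 28.3% in JEKO had every BR array above every PT array. NFKBIB, CYLD and TNIP2, called in neither line, are not shown.

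Among the 11 measured upstream genes TRAF3 was the member called, with a rise in HBL2. It encodes an adaptor that keeps the kinase NIK, the product of MAP3K14, at low amounts. For TRAF3, on the HBL2 PT arrays it was 1.496, 1.61 and 1.56, and on the HBL2 BR arrays 1.89, 1.95 and 1.78, a rise of 0.32 ± 0.066 (adjusted p = 0.0038), with 0.29 on its other probe set. For JEKO, on the JEKO PT arrays it was 1.79 and 1.78, and on the JEKO BR arrays 1.78 and 1.61, and the difference was -0.09 ± 0.08 (adjusted p = 0.64). Its other probe set moved by 0.089 in JEKO, with a difference between the lines of 0.20 (adjusted p = 0.498) that was not called. The TRAF3 changes of the lines on the probe set shown differed by 0.41 ± 0.1 (adjusted p = 0.021), a call lost without replicate 1 or 2 of HBL2 BR, either JEKO PT array or JEKO BR replicate 2 (0.32 to 0.41, adjusted p = 0.052 to 0.15). MAP3K14 read 0.98, 0.91 and 0.76 on the HBL2 PT arrays and 0.98, 0.90 and 0.93 on the HBL2 BR arrays and 1.20 and 1.12 on the JEKO PT arrays and 1.05 and 1.01 on the JEKO BR arrays. Its BR minus PT differences were 0.05 ± 0.072 and -0.13 ± 0.088 (adjusted p = 0.72 and 0.48). MAP3K14 was lower in HBL2 PT than in JEKO PT (-0.28 ± 0.08, adjusted p = 0.017).

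The kinase complex itself, made of the catalytic subunits encoded by CHUK and IKBKB and the scaffold encoded by IKBKG, had 0 of 3 genes called in either line by limma, and also 0 at an unadjusted p under 0.05 in HBL2. CHUK read 1.59, 1.68 and 1.69 on the HBL2 PT arrays and 1.76, 1.76 and 1.76 on the HBL2 BR arrays and 1.66 and 1.68 on the JEKO PT arrays and 1.56 and 1.55 on the JEKO BR arrays. Its BR arrays lay above PT in HBL2 and below PT in JEKO, by 0.11 ± 0.055 (adjusted p = 0.27) and -0.12 ± 0.068 (adjusted p = 0.41), and the difference between the lines was not called (adjusted p = 0.14). IKBKG read 1.34, 1.26 and 1.21 on the HBL2 PT arrays and 1.25, 1.18 and 1.26 on the HBL2 BR arrays and 1.18 and 1.14 on the JEKO PT arrays and 1.01 and 0.83 on the JEKO BR arrays, a JEKO difference of -0.24 ± 0.081 (adjusted p = 0.12), while its other probe set moved by -0.031. IKBKB differed by -0.07 and -0.02 (adjusted p = 0.66 and 0.95). IKBKB ranged from 1.47 to 1.66 in HBL2 PT, 1.37 to 1.56 in HBL2 BR, 1.45 to 1.61 in JEKO PT and 1.48 to 1.54 in JEKO BR. At an unadjusted p under 0.05 the complex had 1 gene in JEKO, IKBKG. Of all 14529 genes, 2559 passed that threshold in JEKO and 3417 in HBL2.

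CD40, the receptor by which T cells activate B cells, read 1.56, 1.65 and 1.73 on the HBL2 PT arrays and 1.59, 1.57 and 1.61 on the HBL2 BR arrays and 1.63 and 1.59 on the JEKO PT arrays and 1.70 and 1.66 on the JEKO BR arrays. Its differences were -0.05 and 0.07 (adjusted p = 0.67 and 0.69), and the other 3 CD40 probe sets moved by 0.053 to 0.20 in HBL2. TRAF6 read 1.32, 1.21 and 1.29 on the HBL2 PT arrays and 1.31, 1.18 and 1.09 on the HBL2 BR arrays and 1.28 and 1.19 on the JEKO PT arrays and 1.11 and 1.09 on the JEKO BR arrays. BIRC2, which encodes the ubiquitin ligase cIAP1, read 1.94, 2.04 and 2.18 on the HBL2 PT arrays and 2.06, 2.02 and 1.98 on the HBL2 BR arrays and 2.24 and 2.29 on the JEKO PT arrays and 2.21 and 2.23 on the JEKO BR arrays, with differences of -0.03 and -0.05 (adjusted p = 0.82 in both). The adaptor gene TRAF1 and the kinase genes MAP3K7 (TAK1) and MAP3K8 (TPL2) overlapped in both lines, with differences between -0.13 (TRAF1 in HBL2) and 0.17 (MAP3K8 in JEKO). TRAF1 ranged from 0.74 to 1.10 in HBL2 PT, 0.79 to 0.90 in HBL2 BR, 0.95 to 1.02 in JEKO PT and 0.77 to 1.09 in JEKO BR. MAP3K7 ranged from 1.45 to 1.82 in HBL2 PT, 1.55 to 1.78 in HBL2 BR, 1.47 on both arrays in JEKO PT and 1.39 to 1.62 in JEKO BR. MAP3K8 ranged from 0.94 to 1.13 in HBL2 PT, 1.09 to 1.17 in HBL2 BR, 0.75 to 1.03 in JEKO PT and 0.97 to 1.15 in JEKO BR.

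The targets split in HBL2 BR, where CCL4, CCL22, CD83 and CFLAR fell and PTGER4, IER3 and TNFAIP2 rose. In JEKO BR PTGER4 and CCL4 rose and no target fell, nor did one at an unadjusted p under 0.05, where 1082 of all 14529 genes were lower. The median change of the 9 targets was 0.00058 in HBL2 and 0.13 in JEKO. CCL4 encodes a chemokine of activated B cells and macrophages. For CCL4, on the HBL2 PT arrays it was 1.38, 1.26 and 1.41, and on the HBL2 BR arrays 0.39, 0.46 and 0.67, a fall of 0.84 ± 0.079 (adjusted p = 2.17e-06). JEKO cells gave 0.86 and 0.96 on the JEKO PT arrays and 1.31 and 1.35 on the JEKO BR arrays, a rise of 0.43 ± 0.097 (adjusted p = 0.021). The CCL4 changes differed by -1.27 ± 0.13 (adjusted p = 1.23e-05), a call kept in all 22 alternatives, although the JEKO rise was lost without any 1 JEKO array (0.38 to 0.48, adjusted p = 0.062 to 0.18) with normal scores (adjusted p = 0.26) and with percentile ranks (adjusted p = 0.32). The CCL4 score was higher in HBL2 than JEKO among PT cells (0.44 ± 0.089), a call lost with normal scores (adjusted p = 0.084) and percentile ranks (adjusted p = 0.13), and lower among BR cells (-0.83 ± 0.089).

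CCL22 encodes a chemokine that draws regulatory T cells. For CCL22, on the HBL2 PT arrays it was 1.25, 1.11 and 1.13, and on the HBL2 BR arrays 0.37, 0.46 and 0.44, a fall of 0.74 ± 0.099 (adjusted p = 8.51e-05). The JEKO values were 0.34 and 0.46 on the JEKO PT arrays and 0.30 and 0.33 on the JEKO BR arrays. Only the HBL2 PT arrays reached the array median of 0.73, so CCL22 passed the filter on low values through that group and had to be higher there; its change is given as a description. The difference of the CCL22 changes was -0.66 ± 0.16 (adjusted p = 0.015), lost without HBL2 PT replicate 1, JEKO PT replicate 1 or JEKO BR replicate 2 (-0.64 to -0.59, adjusted p = 0.051 to 0.065). It was also lost with normal scores (adjusted p = 0.18), on percentile ranks (adjusted p = 0.0502) and without the 3 low-actin arrays (-0.605, adjusted p = 0.13). In the same arrays the summed score of 5 measured myeloid markers was 2.76 to 3.51 in HBL2 PT and 1.93 to 2.25 in HBL2 BR, against 2.23 to 2.48 and 2.12 to 2.83 in JEKO PT and BR. LYZ had means of 0.93 in HBL2 PT and 0.34 in HBL2 BR, but like CCL22 it passed the filter through HBL2 PT arrays alone, so its test is not used. ITGAM had means of 0.86 in HBL2 PT and 0.47 in HBL2 BR, a difference that was not called, and CD163 0.45 and 0.31. CSF1R was level, at 0.705 and 0.698. CD14, a defining marker, was low in every group (mean 0.16 to 0.304) and was 0.23 in HBL2 PT and 0.304 in HBL2 BR. The markers thus did not move together. By group mean LYZ and ITGAM reached the array median in HBL2 PT alone, so their lower HBL2 BR values are given as a description. The part of these markers in the chemokine changes was not tested, and in bulk RNA fewer cells of a type and less RNA per cell cannot be told apart.

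CD83, a surface marker of activated B cells, fell in HBL2. On HBL2 arrays it was 1.91, 1.80 and 1.99 in PT and 1.45, 1.45 and 1.55 in BR cells, a fall of 0.42 ± 0.065 (adjusted p = 0.00036). For JEKO, on the JEKO PT arrays it was 1.97 and 2.11, and on the JEKO BR arrays 1.97 and 1.98, a difference of -0.07 ± 0.08 (adjusted p = 0.74). The difference between the lines, -0.35 ± 0.1, lay close to the limit for a call (adjusted p = 0.044) and was not called without replicate 1 or 3 of HBL2 PT, 1 or 2 of HBL2 BR, 1 of JEKO PT, or 1 or 2 of JEKO BR (-0.35 to -0.28, adjusted p = 0.057 to 0.22). CFLAR encodes FLIP, an inhibitor of caspase 8 activation. CFLAR read 1.65, 1.67 and 1.90 on the HBL2 PT arrays and 1.32, 1.4995 and 1.36 on the HBL2 BR arrays, without overlap, a fall of 0.35 ± 0.074 (adjusted p = 0.0047). It read 1.52 and 1.61 on the JEKO PT arrays and 1.63 and 1.57 on the JEKO BR arrays, a difference of 0.03 ± 0.091. Of its 11 other tested probe sets 10 were lower in HBL2 BR, and the call was lost with the median over probe sets (-0.21, adjusted p = 0.060) and when _x_at and _s_at probe sets were dropped (-0.26, adjusted p = 0.12).

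PTGER4, the EP4 receptor for prostaglandin E2, rose in both lines. For PTGER4, on the HBL2 PT arrays it was 0.91, 0.93 and 0.85, and on the HBL2 BR arrays 1.53, 1.58 and 1.54, a rise of 0.65 ± 0.06 (adjusted p = 1.63e-06). JEKO cells gave 1.82 and 1.87 on the JEKO PT arrays and 2.05 and 2.20 on the JEKO BR arrays, a rise of 0.28 ± 0.073 (adjusted p = 0.04). The PTGER4 rise was greater in HBL2 by 0.37 ± 0.095 (adjusted p = 0.022), from a lower start: HBL2 PT minus JEKO PT was -0.94 ± 0.067 (adjusted p = 6.75e-08). The JEKO call was lost without either JEKO PT array, JEKO BR replicate 2, HBL2 PT replicate 2, or replicate 1 or 2 of HBL2 BR (0.20 to 0.31, adjusted p = 0.056 to 0.37), and the call of the difference without HBL2 BR replicate 2, JEKO PT replicate 1, JEKO PT replicate 2 or JEKO BR replicate 1 (0.29 to 0.40, adjusted p = 0.058 to 0.12).

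IER3, an early response gene tied to cell survival, read 0.77, 0.89 and 0.73 on the HBL2 PT arrays and 1.26, 1.28 and 1.35 on the HBL2 BR arrays, a rise of 0.50 ± 0.066 (adjusted p = 6.62e-05). In JEKO it read 1.26 and 1.41 on the JEKO PT arrays and 1.58 and 1.58 on the JEKO BR arrays, a difference of 0.25 ± 0.08 (adjusted p = 0.1) without overlap. TNFAIP2, a gene induced by tumour necrosis factor, read 1.29, 1.17 and 1.25 on the HBL2 PT arrays and 1.63, 1.64 and 1.74 on the HBL2 BR arrays, a rise of 0.43 ± 0.068 (adjusted p = 0.00038). In JEKO it read 0.71 and 0.76 on the JEKO PT arrays and 0.77 and 0.96 on the JEKO BR arrays, a difference of 0.13 ± 0.083 (adjusted p = 0.44). The TNFAIP2 rise in HBL2 was 0.27 with the median over its probe sets and on percentile ranks it missed the threshold (adjusted p = 0.062). Its other probe set moved by 0.11 (adjusted p = 0.64). EBI3, a subunit shared by the cytokines IL-27 and IL-35, read 1.04, 0.93 and 1.28 on the HBL2 PT arrays and 1.04, 0.99 and 1.22 on the HBL2 BR arrays and 0.56 and 0.60 on the JEKO PT arrays and 0.83 and 0.61 on the JEKO BR arrays, with differences of 0.15 in JEKO and 0.00058 in HBL2. JUNB, an AP-1 factor, read 1.12, 1.15 and 1.10 on the HBL2 PT arrays and 1.18, 1.41 and 1.38 on the HBL2 BR arrays and 1.36 and 1.1996 on the JEKO PT arrays and 1.25 and 1.21 on the JEKO BR arrays, with differences of 0.20 ± 0.071 (adjusted p = 0.082) and -0.05 ± 0.087 (adjusted p = 0.82).

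**Figure D4:**
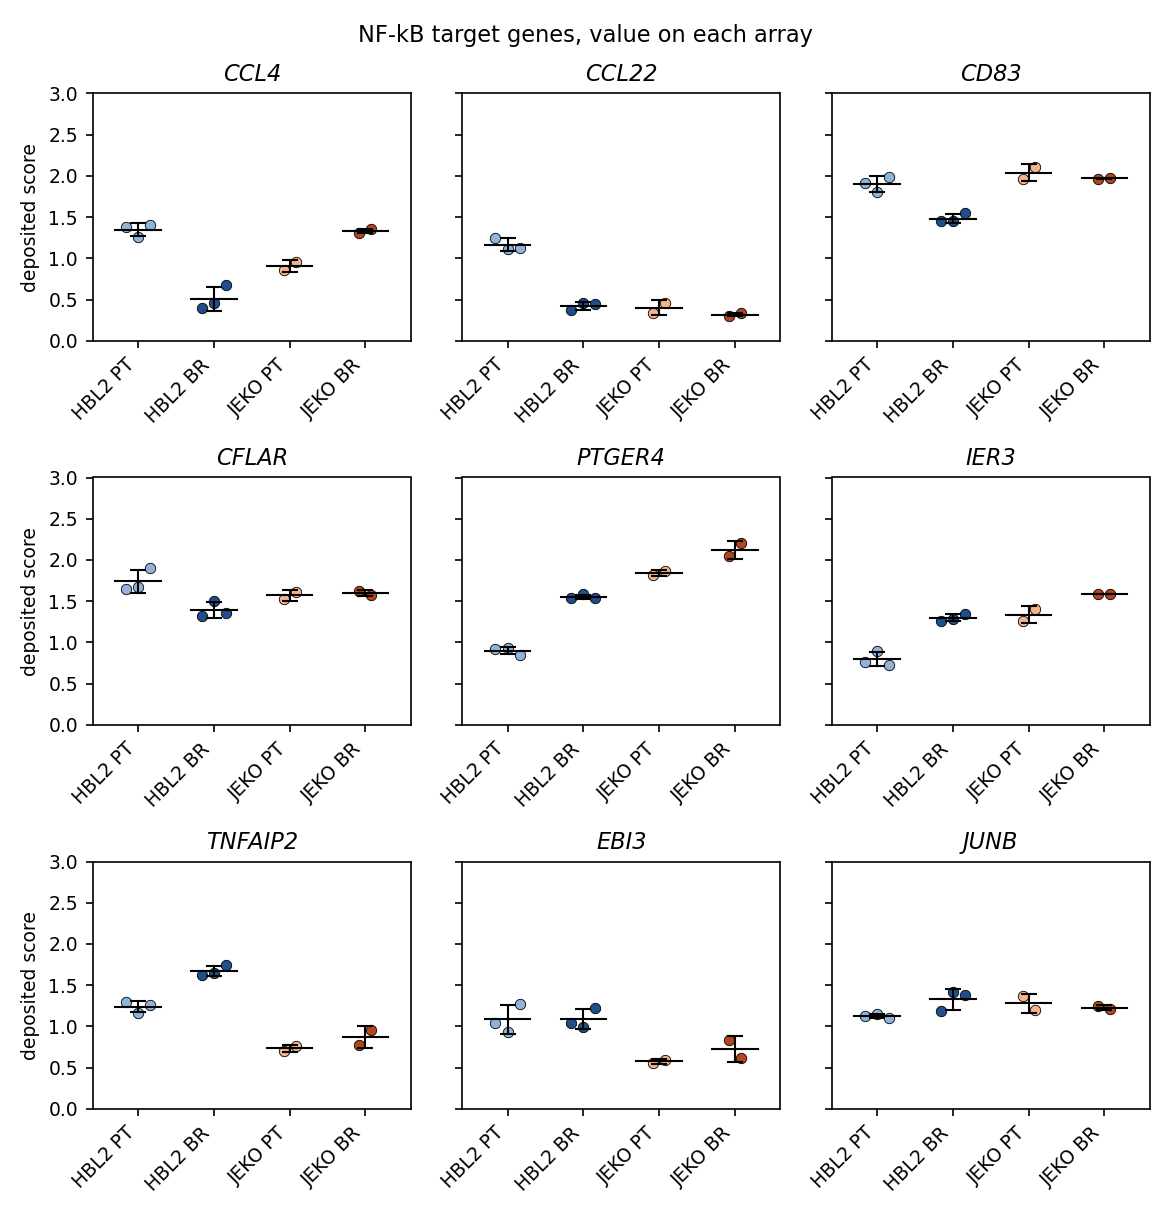
Deposited score on each array for the 9 measured targets by group; horizontal lines are group means and bars are standard deviations (n = 3 in HBL2 and 2 in JEKO). CCL4 is lower on HBL2 BR than on HBL2 PT arrays and higher on JEKO BR than on JEKO PT arrays, while PTGER4 is higher in BR cells of both lines.

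The lines themselves differed in 11 of the 34 members among PT cells, 4 higher and 7 lower in HBL2 (32.4%, against 23.1% of all genes, 13.9% higher and 9.25% lower), and in 15 among BR cells, 7 higher and 8 lower (44.1%, against 28.1%, 14.0% higher and 14.1% lower). Both comparisons share arrays with those above. Targets made up 6 of the 11 in PT cells, among them CCL22, which passed the filter on low values through HBL2 PT alone, and EBI3, which could not have passed it on the JEKO arrays alone (1 of 4 at or above the array median), so both had to be higher in HBL2. CCL22 (0.76), EBI3 (0.51), TNFAIP2 (0.51) and CCL4 (0.44) were higher in HBL2 PT, and PTGER4 (-0.94) and IER3 (-0.54) were lower. RELB (-0.39), TNFAIP3 (-0.30), MAP3K14 (-0.28), TRAF3 (-0.23) and BIRC2 (-0.21, adjusted p = 0.045) were also lower there. Leaving out JEKO PT replicate 2 leaves 1 array in that group, and fewer members and fewer of all genes were called. The BIRC2 call was lost on leaving out any array except replicate 3 of HBL2 PT and replicate 3 of HBL2 BR. CCL4 was not called with normal scores or percentile ranks (adjusted p = 0.084 and 0.13). TRAF3 and MAP3K14 were not called without JEKO PT replicate 1 (adjusted p = 0.148 and 0.147), nor TRAF3 without HBL2 PT replicate 1 (adjusted p = 0.079). Without JEKO PT replicate 2 the TNFAIP3 difference was -0.20 (adjusted p = 0.17), and those of TRAF3 and MAP3K14 had adjusted p = 0.13 and 0.053.

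Among BR cells TNFAIP2 (0.80), NFKBIZ (0.50), EBI3 (0.36), REL (0.35), IKBKG (0.31), CHUK (0.20) and NFKB1 (0.20) were higher in HBL2. CCL4 (-0.83), PTGER4 (-0.57), CD83 (-0.49), NFKBIE (-0.44), TNFAIP3 (-0.36), NFKB2 (-0.30), IER3 (-0.28) and RELB (-0.25) were lower. The EBI3 call carries the same limit as in PT cells. NFKB2 turned to 0.028 (adjusted p = 0.85) when _x_at and _s_at probe sets were dropped. Leaving out JEKO BR replicate 2 leaves 1 array in that group, and fewer members and fewer of all genes were called. The calls lost were NFKB1 at 0.079, NFKB2 at -0.35, IER3 at -0.28, IKBKG at 0.22, EBI3 at 0.25 and CHUK at 0.20. Other single arrays also ended calls: NFKB1 was lost without any array except replicates 1 and 3 of HBL2 PT and replicate 1 of JEKO BR (adjusted p = 0.059 to 0.56), NFKB2 without HBL2 BR replicate 1 or 3 or JEKO BR replicate 1 (adjusted p = 0.071 to 0.21), and CHUK without HBL2 BR replicate 1 or 2 or JEKO BR replicate 1 (adjusted p = 0.054 to 0.090). EBI3 was not called when HBL2 BR replicate 3 was left out (0.29, adjusted p = 0.079), RELB without HBL2 BR replicate 1 or JEKO BR replicate 1 (adjusted p = 0.054 and 0.12) and IER3 without JEKO BR replicate 1 (adjusted p = 0.053). On percentile ranks NFKBIZ (adjusted p = 0.37), IER3 (0.16), NFKB2 (0.12) and RELB (0.052) were not called. IKBKG was 0.082 (adjusted p = 0.52) when _x_at and _s_at probe sets were dropped, and REL was 0.25 (adjusted p = 0.057) without the 3 low-actin arrays.

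Other genes of the pathway were read as 2 further lists. Of 39 tested receptors, ligands and adaptors (of 46), 7 changed in HBL2, 1 higher and 6 lower (17.9%, against 11.8% of all genes), and 1 changed in JEKO (2.56%, against 4.28%, so below the share of all genes). PRKCB, a kinase of B cell receptor signalling, fell by 0.45 ± 0.064 in HBL2 (adjusted p = 1.59e-04), NFKBID, a nuclear IkB protein, by 0.38, and OTULIN, a deubiquitinase of linear chains, by 0.37. NKIRAS1, an IkB-binding Ras-like protein, rose by 0.39. In JEKO BTK, the kinase downstream of the B cell receptor, fell by 0.34 ± 0.076 (adjusted p = 0.018). Of 34 tested further targets (of 36), 3 rose and 8 fell in HBL2 (32.4%, against 11.8% of all genes), and 5 rose and 2 fell in JEKO (20.6%, against 4.28%). The adhesion receptor gene CD44 fell in both lines (-1.11 and -0.95) and CD80, a costimulatory ligand, rose in both (1.04 and 0.38). In HBL2 BCL2A1 (-0.65) and NR4A1 (-0.50) fell as well, and in JEKO the cyclin gene CCND2 (0.88), the homing receptor gene CCR7 (0.55) and the signalling factor gene STAT5A (0.51) rose. STAT5A fell in HBL2 (-0.28, adjusted p = 0.045), and its changes differed between the lines by -0.78 ± 0.14 (adjusted p = 0.0017). The median change of these targets was -0.014 in HBL2 and 0.10 in JEKO. Beside these, 5 of 6 plasma cell markers rose in HBL2 BR, among them IRF4 (0.43), itself on the further target list, and PRDM1 (0.38), and in JEKO SDC1 rose and CD38 fell. The summed score of the 6 markers was 7.86 to 8.41 in HBL2 PT, 9.90 to 10.1 in HBL2 BR, 7.17 to 7.23 in JEKO PT and 7.94 to 8.23 in JEKO BR, and the part of that shift in the pathway genes was not tested. Of the 8 measured mantle cell and B cell markers 2 fell in HBL2, CD79A (-0.35, adjusted p = 0.00098) and CD79B (-0.25, adjusted p = 0.017), and CD22 rose in JEKO (0.35, adjusted p = 0.042). Their summed score was 16 to 16.9 in HBL2 PT, 14.7 to 15.7 in HBL2 BR, 17.7 to 18.0 in JEKO PT and 17.3 to 17.8 in JEKO BR, and its part was not tested either.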

How the data were processed

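RNA of 10 samples was hybridised to Affymetrix arrays with 54675 probe sets. The authors' deposited values are scores. Per the submitters' processing notes MAS5 was used, with no version named; the sources used here do not give what followed. The sorted deposited scores are identical on every array, so each score depends only on the rank of its probe set, and a shift of most genes one way cannot be seen. No detection calls were used, and precision is limited by how few arrays there are.

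Probe sets with 1 symbol in the platform annotation were kept if they reached the 50th percentile of their array on 2 or more arrays, and each gene took the brightest of them by its mean over all arrays, which left 14529 genes. Of the 54675 probe sets, those without a symbol, 1801 with several symbols and 62 controls were left out. Group means were compared by limma 3.58.1 under R 4.3.3 (4 group means in 1 fit, eBayes with an intensity trend, 6 residual degrees of freedom), two-sided, with Benjamini-Hochberg adjustment over all genes, and the script was tested on simulated data. No log step was taken because the scores are already log-like.

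The members, the lists and the alternatives were chosen with earlier results of these data known. Every array value is given for members called in any comparison or whose BR and PT arrays do not overlap in a line, the others are given by their range in each group and their differences, and up to 4 called genes are named per further list and line (a gene named for 1 line is also given for the other where it changed there, and IRAK1, LYZ, CD14 and the cell type markers are named beside the results they touch). Alternatives were no filter, a 75th percentile filter, other variance models, array weights, each line alone, a replicate block, other choices of probe set, rank scales, a beta-actin covariate and each array left out. Omission of the 3 low-actin arrays (those of lowest beta-actin 5' minus 3' value) was added after the data were seen.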

Additional observations from a re-analysis of the deposited data

Results flagged for a closer look

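In 7 members the BR minus PT change differed between HBL2 and JEKO in the limma test of that difference (20.6% of the 34, against 8.71% of all genes). Given as the HBL2 change minus the JEKO change, CCL4 differed by -1.27 (adjusted p = 1.23e-05), with a fall in HBL2 and a rise in JEKO. CD83 differed by -0.35 (adjusted p = 0.0444), with a fall called in HBL2 and a JEKO difference of -0.0679 that was not called. CCL22 is among the 7 with a difference of -0.656 (adjusted p = 0.0148), but it passed the filter on low values through HBL2 PT alone and had to be higher there, so its value is a description. NFKBIZ differed by 0.629 (adjusted p = 0.00563) and PTGER4 by 0.37 (adjusted p = 0.022), with rises in both lines. REL differed by 0.497 (adjusted p = 0.00462) and TRAF3 by 0.408 (adjusted p = 0.0211), with called rises in HBL2 and differences of -0.122 and -0.0893 in JEKO that were not called. Leaving out JEKO BR replicate 2, JEKO PT replicate 1 or the 3 low-actin arrays leaves 1 array in a JEKO group. Fewer members and fewer of all genes were then called. Without the 3 low-actin arrays the differences were 0.41 for REL, 0.34 for TRAF3, 0.52 for NFKBIZ, -0.37 for CD83 and -0.605 for CCL22. None of these was called there, while CCL4 and PTGER4 were. No group has the 4 arrays that a check for outlying samples needs.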

How the results depend on the processing

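The count of members called in HBL2 (14) lay between 12 and 14 in every alternative except 1 (35.3% to 43.3%, against 7.69% to 18.5% of all genes). Without _x_at and _s_at probe sets it was 7 of 25 genes still tested (28%, against 10.1%). In JEKO (7 called) it was 3 without an intensity trend (8.82%, against 2.68% of all genes). It was 4 of 25 without _x_at and _s_at probe sets (16%, against 4.01%) and 4 with percentile ranks (11.8%, against 3.02%). With each HBL2 array left out it ranged from 5 to 8 (14.7% to 23.5%, against 3.34% to 6.48%). Without any 1 JEKO array or the 3 low-actin arrays a JEKO group has 1 array. Fewer members and fewer of all genes were then called. The count for the difference between the lines (7) ranged from 5 to 7 with each HBL2 array left out (14.7% to 20.6%, against 6.15% to 10.1% of all genes). It was 9 with array weights and with the beta-actin covariate (26.5%, against 13.4% and 10.7%). Here too, fewer members and fewer of all genes were called without any 1 JEKO array or the 3 low-actin arrays. With each HBL2 array left out, HBL2 PT against JEKO PT (11) ranged from 10 to 14 (29.4% to 41.2%, against 19.9% to 24.8%). It was 9 of 30 with the 75th percentile filter (30%, against 35.6%). HBL2 BR against JEKO BR (15) ranged from 11 to 17 (32.4% to 50%, against 22.8% to 31.7%). It was 18 with array weights and the beta-actin covariate (52.9%, against 34.7% and 31.7%) and 8 of 25 without _x_at and _s_at probe sets (32%, against 25%). Both counts, and those over all genes, were lower without any 1 JEKO array. NFKB2 between the BR cells turned from -0.30 to 0.028 without _x_at and _s_at probe sets, the reversal among called members. The fewer genes tested follow from that alternative itself; the cause of the other shifts was not tested. With the replicate block the counts were 14, 6, 7, 10 and 13 in the order above (41.2%, 17.6%, 20.6%, 29.4% and 38.2%). Of all genes 12%, 4.14%, 8.65%, 23.4% and 28.3% were called. Same-numbered arrays correlated by 0.0075 to 0.14 in their deviations, so the numbers are not taken to pair the arrays. Under that block the calls lost were NFKBIA in JEKO (adjusted p = 0.061), BIRC2 between the PT cells (0.058), and NFKB1 (0.051) and NFKB2 (0.054) between the BR cells, and no other call changed. JEKO had 2 arrays a group, so its standard errors were larger than those of HBL2. The smallest change that could be detected there was not examined.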
